A study of Mus musculus with 22 samples.

Results

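Cytochrome P450 enzymes of families 1, 2 and 3 oxidise drugs, pollutants, steroids and fatty acids, and 42 genes of these families outside the Cyp2c subfamily were followed in mouse liver. The members were all genes with a single annotated symbol in the subfamilies Cyp1a, Cyp1b, Cyp2a, Cyp2b, Cyp2d, Cyp2e, Cyp2f, Cyp2g, Cyp2j, Cyp2r, Cyp2s, Cyp2t, Cyp2u and Cyp3a, without pseudogenes named as such and without read-through symbols. They made up 42 of the 24011 genes in the table. The arrays were Affymetrix MoGene 2.0 ST, one for the liver of each of 22 female C57BL/6J mice aged 12 weeks. Wild-type mice ate chow (WT_chow, n = 5) or chow with the bile acid ursodeoxycholic acid (WT_UDCA, n = 6), and so did mice lacking Cyp2c70 (KO_chow, n = 5, and KO_UDCA, n = 6). Treated mice received 0.1% ursodeoxycholic acid (UDCA) in the diet for 7 weeks, starting at 5 weeks of age. Cyp2c70 makes the muricholic acids of mouse bile, and its loss leaves a bile acid pool closer to that of humans. The labels give no further detail of the knockout allele, and no other agent or allele is named in any group.

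Drug-metabolizing P450s sit in the endoplasmic reticulum of hepatocytes and draw electrons from P450 reductase and cytochrome b5. The nuclear receptors CAR (Nr1i3) and PXR (Nr1i2) respond to bile acids and foreign compounds and drive the Cyp2b and Cyp3a genes, whereas the aryl hydrocarbon receptor drives the Cyp1 genes. In mice the pattern of growth hormone release sets a sex bias, so that Cyp2b9, Cyp2b13, Cyp3a16, Cyp3a41 and Cyp3a44 are female-biased and Cyp2d9 is male-biased. Inflammation lowers many hepatic P450 transcripts.

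By RefSeq, 12 members lie in the Cyp2a, Cyp2b, Cyp2f, Cyp2g, Cyp2s and Cyp2t cluster on chromosome 7, 9 in the Cyp2d cluster on chromosome 15, 7 in the Cyp2j cluster on chromosome 4 and 8 among the Cyp3a genes of chromosome 5. The remaining 6 are Cyp1a1 and Cyp1a2 on chromosome 9, Cyp1b1 on chromosome 17, Cyp2u1 on chromosome 3, and Cyp2e1 and Cyp2r1 on chromosome 7. Cyp2d13 is annotated as a transcribed pseudogene. Cyp2a5, Cyp3a41a and Cyp2j7 were not analysed here. The 250 bases before the first listed start of 6 Cyp2b and Cyp3a members are shown, to set neighbouring genes of a cluster side by side. These are RefSeq promoter sequences of GRCm38.p6, read 5′ to 3′ on the strand of the gene. Cyp3a16 is at chr5:145469724-145469973, Cyp3a44 at chr5:145805875-145806124 and Cyp3a41b at chr5:145584731-145584980, all on the minus strand. Cyp2b13 is at chr7:26061245-26061494, Cyp2b9 at chr7:26173159-26173408 and Cyp2b10 at chr7:25897408-25897657, all on the plus strand. Capitals mark the nuclear receptor half-site AGGTCA and the aryl hydrocarbon receptor core GCGTG, each searched on both strands.
Cyp3a16: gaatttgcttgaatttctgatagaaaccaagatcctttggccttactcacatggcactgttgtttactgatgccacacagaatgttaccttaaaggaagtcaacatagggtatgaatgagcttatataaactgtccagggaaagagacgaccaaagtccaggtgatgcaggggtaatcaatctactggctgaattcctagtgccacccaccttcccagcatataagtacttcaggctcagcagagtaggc
Cyp3a44: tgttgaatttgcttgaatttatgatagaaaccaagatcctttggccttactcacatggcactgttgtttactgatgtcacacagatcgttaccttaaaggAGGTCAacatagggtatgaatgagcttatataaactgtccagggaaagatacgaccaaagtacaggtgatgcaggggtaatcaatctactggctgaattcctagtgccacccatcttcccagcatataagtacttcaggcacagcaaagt
Cyp3a41b: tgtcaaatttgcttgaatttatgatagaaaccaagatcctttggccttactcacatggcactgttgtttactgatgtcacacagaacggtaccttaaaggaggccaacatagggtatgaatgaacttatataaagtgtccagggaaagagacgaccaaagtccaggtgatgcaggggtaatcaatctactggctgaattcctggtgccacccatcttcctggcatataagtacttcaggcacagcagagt
Cyp2b13: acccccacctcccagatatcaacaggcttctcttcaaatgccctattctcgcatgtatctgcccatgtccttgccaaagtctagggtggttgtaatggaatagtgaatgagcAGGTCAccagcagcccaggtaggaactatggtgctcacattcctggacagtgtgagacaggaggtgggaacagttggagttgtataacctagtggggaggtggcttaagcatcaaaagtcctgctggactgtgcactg
Cyp2b9: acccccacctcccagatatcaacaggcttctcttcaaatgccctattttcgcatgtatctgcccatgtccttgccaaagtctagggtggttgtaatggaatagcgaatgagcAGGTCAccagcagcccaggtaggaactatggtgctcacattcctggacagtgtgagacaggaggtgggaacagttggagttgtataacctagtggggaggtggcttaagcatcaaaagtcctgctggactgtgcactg
Cyp2b10: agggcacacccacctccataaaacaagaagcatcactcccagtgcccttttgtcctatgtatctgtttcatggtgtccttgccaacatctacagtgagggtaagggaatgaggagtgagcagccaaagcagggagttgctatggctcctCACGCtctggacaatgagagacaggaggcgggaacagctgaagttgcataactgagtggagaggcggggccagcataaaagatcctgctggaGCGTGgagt

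The Cyp2b13 and Cyp2b9 promoters matched at 248 of 250 aligned positions, an identity of 99.2%, whereas that of Cyp2b10 had an identity of 71% to either. The Cyp3a16 promoter had an identity of 92.9% to that of Cyp3a44 and 91.7% to that of Cyp3a41b, and Cyp3a44 and Cyp3a41b shared 94.8%. AGGTCA stood in the promoters of Cyp3a44, Cyp2b13 and Cyp2b9, 1 copy each, and GCGTG stood 2 times in that of Cyp2b10. The promoters of Cyp3a16 and Cyp3a41b held neither, and the STAT5 element TTCNNNGAA, through which growth hormone can act, stood in none of the 6. A promoter was found for 36 of the 42 members, and AGGTCA stood in 12 of them (33.3%) against 13.8% of all 27025 promoters of the same length. GCGTG stood in 6 of the 36 (16.7%) against 28.2% of all, and TTCNNNGAA in 2 (5.56%) against 7.18%. Near-identical promoters, such as those of Cyp2b13 and Cyp2b9, each count in these shares, and a difference from all promoters was not tested. Transcripts were not aligned, and how far the array separates Cyp2b13 from Cyp2b9, the Cyp3a genes from each other or the Cyp2d genes from each other was not tested.

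The depth of an array is its signal. The deposited intensities ran from 1.66 to 10284, and array medians lay between 4.84 and 4.96 on the log2 scale. Of the 42 members, 25 lay above the array median on all 22 arrays, 12 on none and 5 on some. The liver identity of the samples was plain, since the hepatocyte product albumin (Alb) lay between 12.96 and 13.06 in every mouse. Cyp2c70 itself was 11.49 ± 0.14 (SD, n = 5) in WT_chow, 11.43 ± 0.14 (n = 6) in WT_UDCA, 10.65 ± 0.12 (n = 5) in KO_chow and 10.51 ± 0.17 (n = 6) in KO_UDCA. Knockout and wild-type mice did not overlap (1.78-fold lower on chow, limma adjusted p = 3.2e-06), and whether the probes lie inside the deleted part is not known here. Differences below are log2 fold changes from limma with their standard errors (SE), and a gene was called at a Benjamini-Hochberg adjusted p below 0.05 over all 24011 genes.

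The first comparison asked how loss of Cyp2c70 went with P450 transcripts on chow. In KO_chow against WT_chow, 10 of the 42 members were lower (23.8%), where 6.03% of all genes were called lower, and 1 member was higher (2.38%), where 7.69% of all genes were. The lower members were Cyp3a16, Cyp2b13, Cyp2d13, Cyp2a22, Cyp3a25, Cyp2g1, Cyp2d22, Cyp1a1, Cyp1a2 and Cyp2b9, and the higher member was Cyp1b1. Among the 28 members at or above the median level, 8 were called lower (28.6%), where 10.6% of genes at such levels were, and 0 higher, where 12.1% were. The groups did not overlap for 7 members, all lower in KO_chow (16.7%, against 3.98% of all genes), and no member was higher without overlap, where 5.45% of all genes were. The median log2 fold change was -0.20 over the members and -0.04 over all genes, and 34 of the 42 members were below 0, against 57.6% of all genes. In bulk liver, fewer cells of a type and less RNA per cell cannot be told apart.

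**Figure D1:**
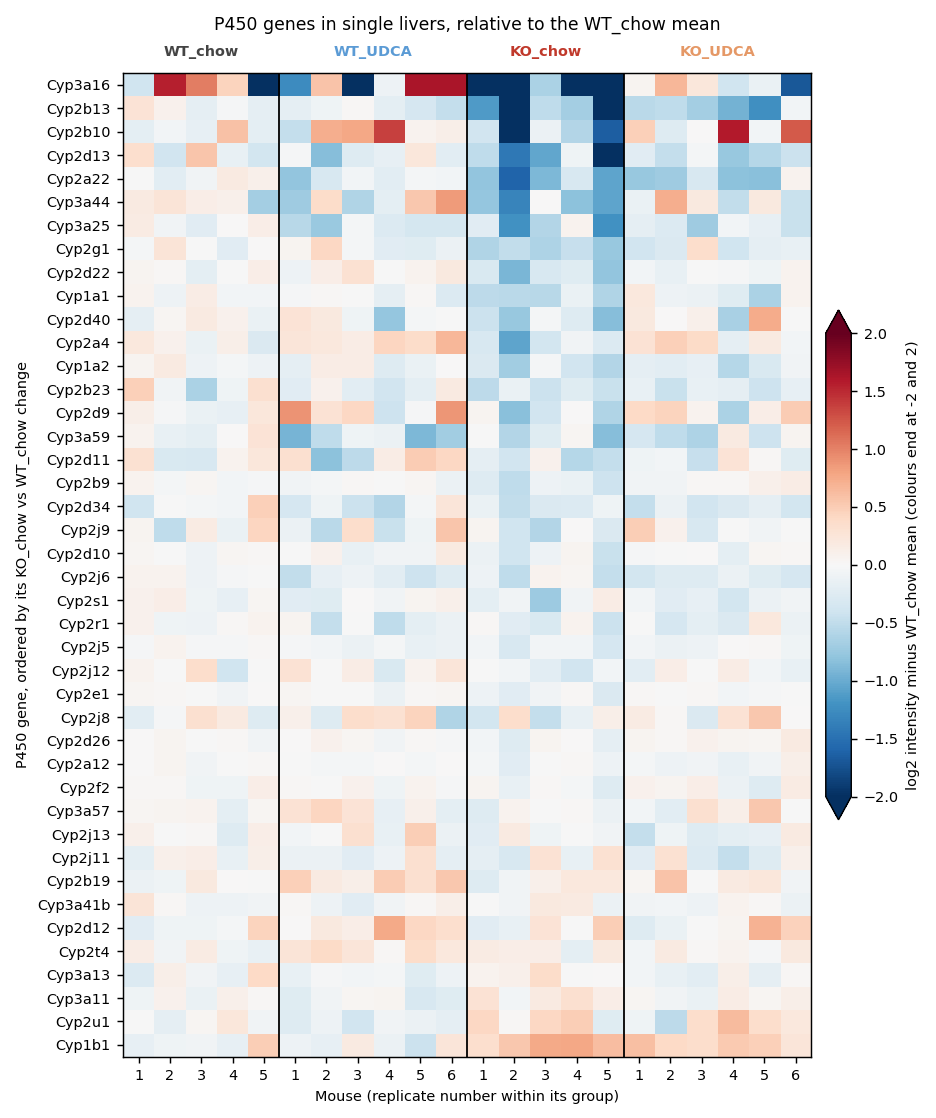
Log2 intensity of each of the 42 P450 genes (rows, ordered by the KO_chow vs WT_chow change) in each of the 22 livers (columns, replicate numbers within a group), relative to the gene's WT_chow mean; colours end at -2 and 2. Most of the dark blue of the upper rows is in KO_chow, with replicates 2 and 5 the darkest for Cyp2b13, Cyp2b10 and Cyp2d13, while Cyp3a16 in the top row is also dark in WT_chow replicate 5 and WT_UDCA replicate 3, and Cyp1b1 in the bottom row is red in both knockout groups.

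The female-biased Cyp2b genes were lower in KO_chow. Cyp2b13, a steroid-hydroxylating form of female mouse liver, had log2 intensities of 10.96, 10.77, 10.51, 10.66 and 10.51 in WT_chow and 9.55, 7.31, 10.18, 10 and 8.69 in KO_chow. Every knockout mouse lay below every wild-type mouse, and the knockout values were widely spread. The difference was -1.53 (SE 0.35, adjusted p = 0.00399, 2.9-fold lower), the largest fold among members whose groups did not overlap. Cyp2b9, its close neighbour, was 12.24, 12.13, 12.2, 12.11 and 12.14 in WT_chow and 11.9, 11.65, 12.07, 12.03 and 11.75 in KO_chow. These groups did not overlap either, with a small difference of -0.29 (SE 0.08, adjusted p = 0.0176). The Cyp2b9 call was lost without KO_chow replicate 2 or without replicate 5 (log2 fold changes of -0.23 and -0.25, adjusted p of 0.0695 and 0.0567), whereas the Cyp2b13 call held in all 10 fits that left out 1 mouse.

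Cyp2b10, the classic CAR target of mouse liver, was 6.88, 7.02, 6.91, 7.66 and 6.88 in WT_chow and 6.69, 4.22, 6.95, 6.48 and 5.42 in KO_chow. Knockout replicates 2 and 5 lay far below the wild-type range, and replicate 3 lay inside it. The difference of -1.11 (95% interval -2.01 to -0.22) had an adjusted p of 0.0918 and was not called, though it was called without KO_chow replicate 3 (-1.36, adjusted p = 0.0442). Cyp2b19, a form known from skin, and Cyp2b23 lay below the array median on every array and were not called (differences of 0.03 and -0.36).

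Of the Cyp2a genes, Cyp2a22 was lower in KO_chow. It was 8.3, 8.11, 8.24, 8.5 and 8.42 in WT_chow and 7.52, 6.71, 7.42, 7.99 and 7.26 in KO_chow. No knockout mouse reached the wild-type range, and the difference was -0.94 (SE 0.2, adjusted p = 0.00213, 1.91-fold lower). Cyp2a4, a testosterone hydroxylase, was 10.67, 10.54, 10.33, 10.58 and 10.16 in WT_chow and 10.13, 9.4, 10.09, 10.38 and 10.18 in KO_chow. Its groups overlapped, and the difference of -0.42 (95% interval -0.74 to -0.1, adjusted p = 0.0792) was not called. Of the fits that left out 1 mouse, only that without KO_chow replicate 4 called it (-0.51, adjusted p = 0.033). Cyp2a12 moved little, with 11.7 ± 0.04 (SD, n = 5) against 11.63 ± 0.1 (n = 5) and a 95% interval of -0.21 to 0.07. Cyp2g1, best known from the olfactory mucosa, was dim at 4.95, 5.25, 4.99, 4.77 and 5 in WT_chow and 4.39, 4.5, 4.38, 4.53 and 4.23 in KO_chow. The groups did not overlap (-0.58, SE 0.13, adjusted p = 0.00448), but all 5 knockout values lay below the array median.

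The Cyp3a genes did not move together. Cyp3a16, first known as the form of foetal mouse liver, was 7.06, 9.02, 8.49, 7.91 and 4.83 in WT_chow and 4.12, 5.17, 6.83, 4.22 and 4.37 in KO_chow. Of the knockout mice 4 lay at 5.17 or below, near the lowest wild-type mouse, and replicate 3 reached 6.83. The difference was -2.52 (SE 0.79, adjusted p = 0.034, 5.75-fold lower), the largest of any member. The call was lost when any one of WT_chow replicates 2, 3 and 4 or KO_chow replicates 1, 2, 4 and 5 was left out (log2 fold change -2.58 to -2.13, adjusted p 0.0624 to 0.0996). Cyp3a44 was 7.74, 7.82, 7.69, 7.66 and 6.88 in WT_chow and 6.79, 6.24, 7.57, 6.74 and 6.5 in KO_chow, and its difference of -0.79 (95% interval -1.39 to -0.19) had an adjusted p of 0.0771.

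Cyp3a25, a testosterone hydroxylase, was 9.05, 8.82, 8.66, 8.89 and 9.02 in WT_chow and 8.66, 7.67, 8.3, 8.96 and 7.67 in KO_chow. Replicates 2 and 5 were low and replicates 1 and 4 reached the wild-type range, and the difference was -0.64 (SE 0.2, adjusted p = 0.0304). The call was lost without any one of WT_chow replicates 1, 4 and 5 or KO_chow replicates 2 and 5 (-0.64 to -0.49, adjusted p 0.0544 to 0.117). Cyp3a11, the main PXR target among mouse Cyp3a genes, was 12.18, 12.35, 12.14, 12.37 and 12.29 in WT_chow and 12.56, 12.21, 12.45, 12.59 and 12.4 in KO_chow. Most of its knockout values lay above the wild-type range, and the difference of 0.17 (95% interval -0.02 to 0.36, adjusted p = 0.242) was not called. Cyp3a41b stood at 12.37 ± 0.15 (SD, n = 5) and 12.41 ± 0.14 (n = 5), with an interval of -0.14 to 0.22. Cyp3a13, Cyp3a57 and Cyp3a59 were not called either, with differences of 0.11, -0.06 and -0.33. The highest value in the whole table was 13.33, and how far the signal of a gene near the top of the scale can still rise was not tested.

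**Figure D2:**
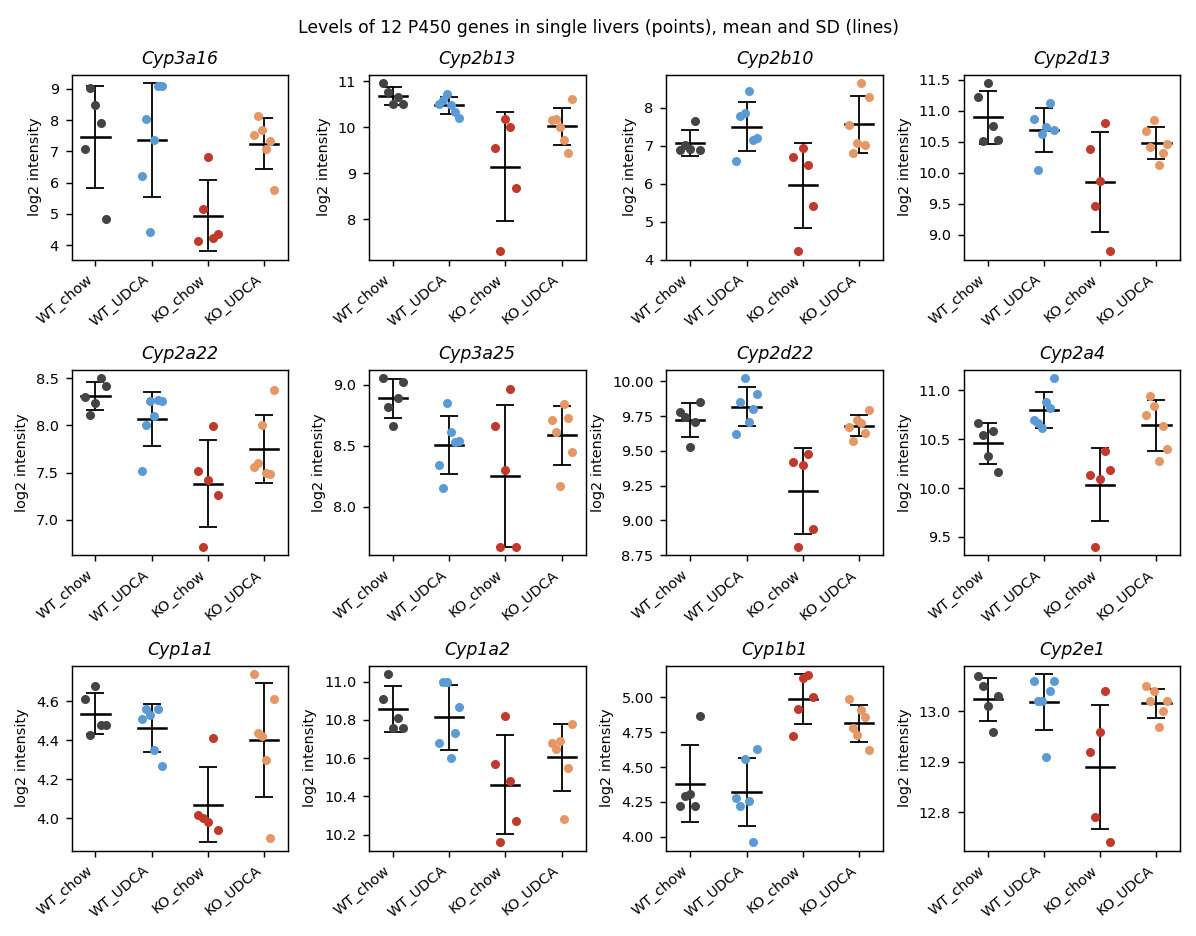
Log2 intensity of 12 P450 genes in single livers (points) by group, with the mean and SD of the group (lines, n = 5 or 6); each panel has its own vertical axis, which does not start at 0. KO_chow is the lowest group for Cyp3a16, Cyp2b13, Cyp2b10, Cyp2d13, Cyp2a22, Cyp3a25, Cyp2d22, Cyp2a4, Cyp1a1 and Cyp1a2, and the knockout points of Cyp2b13 and Cyp2b10 are widely spread.

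In the Cyp2d cluster 2 of 9 members were lower in KO_chow, where 6.03% of all genes were called lower. Cyp2d22, the mouse gene often compared with human CYP2D6, was 9.78, 9.74, 9.53, 9.71 and 9.85 in WT_chow and 9.42, 8.81, 9.4, 9.48 and 8.94 in KO_chow. Its groups did not overlap, and the difference was -0.51 (SE 0.11, adjusted p = 0.00376). The pseudogene Cyp2d13 was 11.23, 10.51, 11.45, 10.75 and 10.53 in WT_chow and 10.38, 9.46, 9.86, 10.81 and 8.73 in KO_chow. Replicate 4 alone of the knockout mice fell within the wild-type range, and the difference was -1.04 (SE 0.28, adjusted p = 0.0131, 2.06-fold lower). Cyp2d9, a male-biased testosterone hydroxylase, was 6, 5.86, 5.75, 5.73 and 6.11 against 5.95, 5.06, 5.51, 5.89 and 5.29, with overlapping groups and an interval of -0.83 to 0.13. The Cyp2d differences ran from -1.04 to 0.08, with a median of -0.31.

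The Cyp1 genes moved in opposite directions. Cyp1a2, a constitutive enzyme of pericentral hepatocytes that clears caffeine, was 10.91, 11.04, 10.76, 10.81 and 10.76 in WT_chow and 10.57, 10.16, 10.82, 10.48 and 10.27 in KO_chow. Replicate 3 of the knockouts lay within the wild-type range, and the difference was -0.40 (SE 0.12, adjusted p = 0.0252). The Cyp1a2 call was lost without any one of WT_chow replicates 1 and 2 and KO_chow replicates 2 and 5 (-0.38 to -0.32, adjusted p 0.0546 to 0.0952). Cyp1a1, the inducible form, was dim, at 4.61, 4.43, 4.68, 4.48 and 4.48 in WT_chow and 4.02, 4, 3.98, 4.41 and 3.94 in KO_chow. The groups just failed to meet, at 4.41 and 4.43, and the difference was -0.47 (SE 0.12, adjusted p = 0.0121), but all 22 arrays had it below the array median.

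Cyp1b1, a form found mainly outside hepatocytes, was the only member called higher, at 4.22, 4.29, 4.31, 4.22 and 4.87 in WT_chow and 4.72, 4.92, 5.14, 5.16 and 5 in KO_chow. Wild-type replicate 5 overlapped the knockout range, and the difference was 0.61 (SE 0.13, adjusted p = 0.00278, 1.52-fold higher), called in all 10 fits that left out 1 mouse. Cyp1b1 was dim, above the array median on only 7 of the 22 arrays, and 4 of the 5 WT_chow values lay below it. Markers of other cells rose in the same mice: 6 of 10 stellate cell and fibroblast markers were called higher, and their mean difference from WT_chow was 0.655 to 1.02 in KO_chow against -0.0665 to 0.0861 in WT_chow. Col1a1, a fibrillar collagen, rose by 2.16 (adjusted p = 3.48e-08). In KO_UDCA the mean difference of the stellate cell and fibroblast list was -0.017 to 0.459. Cyp1b1 was 4.81 ± 0.13 (SD, n = 6) in KO_UDCA and 4.99 ± 0.18 (n = 5) in KO_chow. The part of these cells in the Cyp1b1 difference was not tested.

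Other abundant members moved little. Cyp2e1, which oxidises ethanol and paracetamol, was 13.07, 13.05, 13.01, 12.96 and 13.03 in WT_chow and 12.92, 12.79, 12.96, 13.04 and 12.74 in KO_chow. Replicates 2 and 5 were again lowest, and the difference of -0.13 (95% interval -0.27 to 0, adjusted p = 0.212) was not called. Cyp2f2, a periportal enzyme that activates naphthalene, was 11.87 ± 0.09 (SD, n = 5) and 11.8 ± 0.13 (n = 5), with an interval of -0.25 to 0.11. The 7 Cyp2j genes, epoxygenases of arachidonic acid, had differences of -0.24 to -0.01 and none was called. Cyp2j5 ran from 11.54 to 11.64 in WT_chow and from 11.24 to 11.52 in KO_chow, without overlap but with a difference of only -0.16 (adjusted p = 0.154). The vitamin D hydroxylase Cyp2r1 and the fatty acid hydroxylase Cyp2u1 had differences of -0.17 and 0.22 and were not called.

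**Figure D3:**
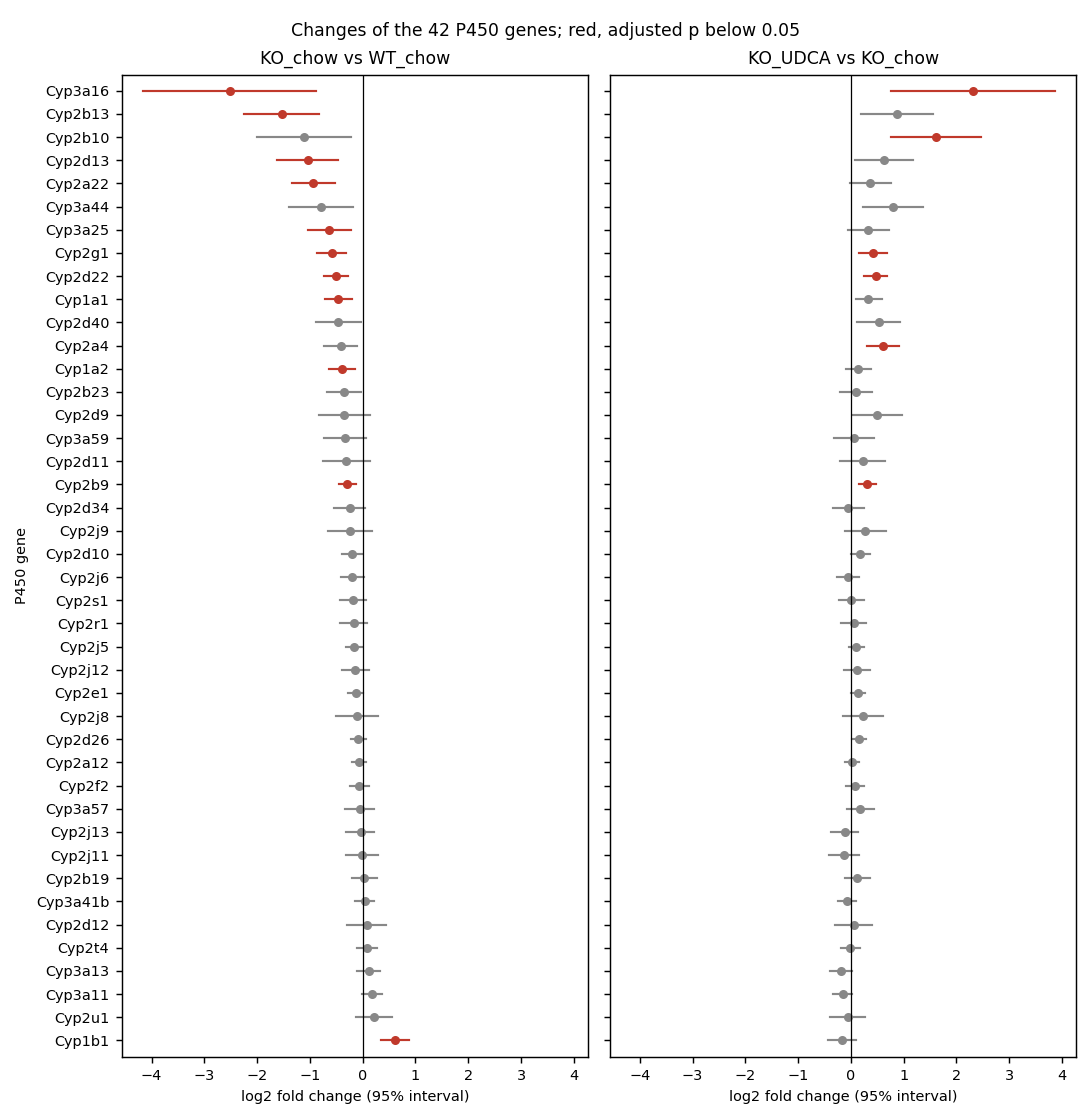
Log2 fold change of each of the 42 P450 genes in KO_chow vs WT_chow (left) and KO_UDCA vs KO_chow (right), with 95% intervals from limma; red marks an adjusted p below 0.05. On the left 10 red points lie below 0 and Cyp1b1 above it, and on the right 6 red points lie above 0; both panels use the same KO_chow mice.

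The knockout mice on chow were not alike. KO_chow replicates 2 and 5 were the 2 lowest of their group for 22 of the 28 members at or above the median level, and one or the other was the lowest for 24. The mean difference of these 28 members from WT_chow was -0.302, -0.795, -0.204, -0.202 and -0.694 in KO_chow replicates 1 to 5, and -0.144 to -0.0365 in KO_UDCA. The median SD of a member was 0.15 in WT_chow and 0.24 in KO_chow. Without replicate 2, or without replicate 5, 7 of the 42 members were called in place of 11. In either direction 9.24% and 9.45% of all genes were then called, in place of 13.7%. With both left out, which was chosen after seeing the data, 3 members were called, where 1089 genes in all were (4.54%). The 3 were Cyp2b13 (-0.77, adjusted p = 0.024), Cyp2g1 (-0.55, adjusted p = 0.0449) and Cyp1b1 (0.62, adjusted p = 0.0226). Cyp2a22 then had -0.67 (adjusted p = 0.0538), Cyp2d22 -0.28 (adjusted p = 0.0903) and Cyp3a16 -2.41 (adjusted p = 0.187).

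**Figure D4:**
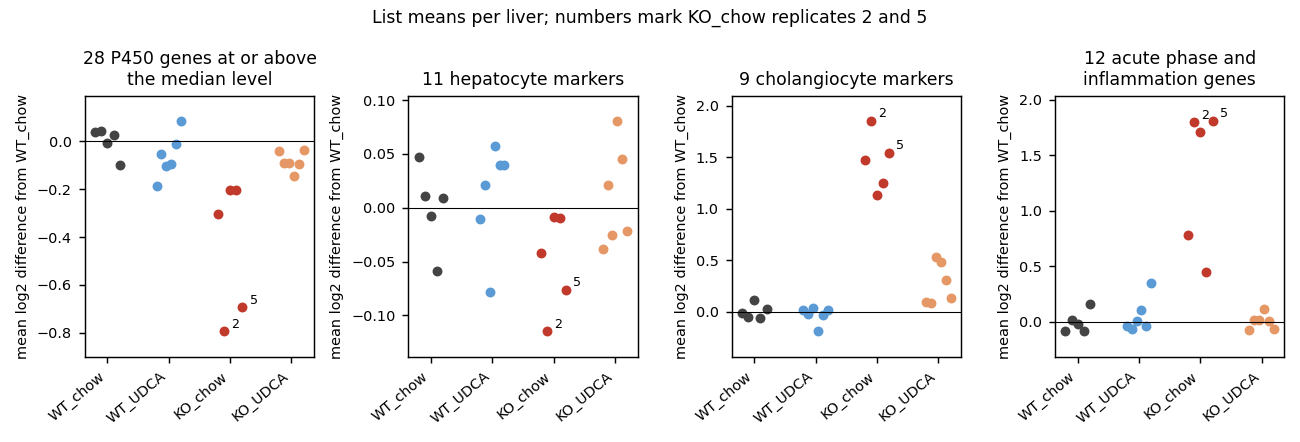
Mean log2 difference from the WT_chow mean over 4 gene lists, for each liver (points) by group; the vertical axes differ between panels, and the numbers mark KO_chow replicates 2 and 5. These mice had the lowest P450 means, at -0.795 and -0.694, and cholangiocyte and acute phase means of 1.54 to 1.85.

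Other gene groups moved in the same livers. Acute phase and inflammation genes were higher in KO_chow for 10 of 12, with a median difference of 1.05, and Saa1, a serum amyloid made by hepatocytes in inflammation, rose by 2.87 (adjusted p = 8.89e-07). The mean of this list was 0.78, 1.8, 1.71, 0.447 and 1.81 in KO_chow replicates 1 to 5 and -0.0856 to 0.162 in WT_chow. The highest were replicates 2, 3 and 5. For the 28 P450 members at or above the median level, the means of replicates 1 to 5 were -0.302, -0.795, -0.204, -0.202 and -0.694. All 9 cholangiocyte markers rose, with list means of 1.13 to 1.85 in KO_chow, 0.086 to 0.53 in KO_UDCA and -0.0613 to 0.109 in WT_chow. Krt19, a bile duct keratin, was below the array median on all WT_chow and WT_UDCA arrays and above it on all KO_chow arrays. Of 12 macrophage markers 6 were higher and 4 lower. Hepatocyte markers changed less: 2 of 11 were lower (Tdo2 -0.33, adjusted p = 0.0418, and Asgr1 -0.26, adjusted p = 0.0278). The list means of KO_chow replicates 1 to 5 were -0.0424, -0.115, -0.00833, -0.00947 and -0.0765, again lowest in replicates 2 and 5. This list holds Alb, near the top of the scale, and Fgb. Fgb was 12.68, 12.84, 12.85, 12.77 and 12.81 in KO_chow and at most 12.72 in WT_chow. How well the list mean follows hepatocyte content was not tested. Across all genes 7.69% were called higher and 6.03% lower, and the part of inflammation or of other cell types in the P450 differences was not tested.

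Of 14 xenobiotic receptors and partner factors measured, 6 were lower in KO_chow and 1 was higher, where 6.03% of all genes were called lower and 7.69% higher. Among genes at or above the median level these shares were 10.6% and 12.1%. The 6 included Ppara (-0.53) and Nr1h4 (-0.49). Leaving out 1 mouse could end the call of Ppara (adjusted p 0.0528 to 0.0663) and of Nr1h4 (adjusted p 0.0581 to 0.0805). CAR (Nr1i3) was 9.28, 8.93, 9.73, 9.09 and 9.07 in WT_chow and 8.64, 7.69, 7.9, 8.72 and 7.19 in KO_chow. Its groups did not overlap and the difference was -1.19 (SE 0.26, adjusted p = 0.00278, 2.28-fold lower). The CAR call held in all 10 fits that left out 1 mouse, but not with KO_chow replicates 2 and 5 both left out (-0.8, adjusted p = 0.0792). PXR (Nr1i2) was 8.6, 8.49, 8.39, 8.52 and 8.83 against 8.53, 7.63, 7.98, 8.36 and 7.97, with overlap at replicate 1 and a difference of -0.47 (SE 0.14, adjusted p = 0.03). The PXR call was lost without any one of WT_chow replicates 1 and 5 and KO_chow replicates 2, 3 and 5 (-0.47 to -0.36, adjusted p 0.0582 to 0.117). The aryl hydrocarbon receptor Ahr, at 8.79 ± 0.13 (SD, n = 5) and 8.52 ± 0.22 (n = 5), had a difference of -0.27 (95% interval -0.52 to -0.02, adjusted p = 0.149).

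The lists around the P450s were mixed. Beside their counts, 6.03% of all genes were called lower in KO_chow and 7.69% higher. Among genes at or above the median level these shares were 10.6% and 12.1%. Of 14 CAR and PXR targets outside the P450s, 2 were lower and 1 higher: Sult2a1, a bile acid sulfotransferase, fell by 4.71 (adjusted p = 3.48e-08), the transporter Slco1a4 fell by 0.84 (adjusted p = 0.00217), and the efflux pump Abcb1a rose by 0.89 (adjusted p = 0.002). Of 11 genes for electron and haem supply 3 were lower, all in haem synthesis: Cpox fell by 0.74 (adjusted p = 0.000513), Alad by 0.32 (adjusted p = 0.0191) and Urod by 0.24 (adjusted p = 0.0345). Alas1, the rate-limiting enzyme of that pathway, had a difference of 0.14 (95% interval -0.37 to 0.66). Of 6 aryl hydrocarbon receptor targets 1 was called, Nfe2l2, at 0.33 (adjusted p = 0.0421). Leaving out 1 mouse ended the call of Alad (KO_chow replicates 2 and 5, adjusted p 0.0649 to 0.0749), of Urod (WT_chow replicates 3, 4 and 5 and KO_chow replicates 2, 3 and 5, adjusted p 0.0563 to 0.123) and of Nfe2l2 (WT_chow replicates 2, 4 and 5 and KO_chow replicates 2, 3 and 5, adjusted p 0.0535 to 0.133). Of 12 growth hormone and sex-bias regulators 5 were lower and 1 higher. Jak2, the kinase of the growth hormone receptor, rose by 0.47 (adjusted p = 0.00463), and Igfals fell by 0.48 and Trim24 by 0.38. Leaving out 1 mouse could end the call of Igfals (adjusted p 0.0653 to 0.0703) and of Trim24 (adjusted p 0.0517 to 0.0767). Cux2, a factor of female-biased expression named after its values were seen, fell by 0.59 (adjusted p = 0.022), with overlapping groups. Fits without 1 mouse are not given for Cux2. Of the 8 female-biased members measured 4 were lower (Cyp2a22, Cyp2b13, Cyp2b9 and Cyp3a16), where 6.03% of all genes and 23.8% of the 42 members were called lower. The rest were not called: Cyp2b10 (-1.11), Cyp3a44 (-0.79), Cyp2a4 (-0.42) and Cyp3a41b (0.04). The median of the 8 was -0.86. Of the male-biased Cyp2d9 and Cyp2u1 neither was called, at -0.35 and 0.22. Of the 4 pericentral members measured (Cyp1a2, Cyp2e1, Cyp2a4 and Cyp3a11) 1 was lower, Cyp1a2, and the periportal Cyp2f2 was not called.

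The second comparison set KO_UDCA against KO_chow. Here 6 of the 42 members were higher (14.3%), where 5.03% of all genes were called higher, and 0 were lower, where 6.22% of all genes were. They were Cyp3a16, Cyp2b10, Cyp2a4, Cyp2d22, Cyp2g1 and Cyp2b9. The median difference was 0.14 over the members and 0.03 over all genes. The KO_chow mice enter both this comparison and the first. Without KO_chow replicate 2, 3 of the 42 members were called in place of 6. In either direction 6.88% of all genes were then called, in place of 11.2%. With replicates 2 and 5 both left out 0 members were called, where 673 genes in all were (2.8%).

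Cyp2b10 ran from 6.81 to 8.65 in KO_UDCA, with a median of 7.31, against 6.69, 4.22, 6.95, 6.48 and 5.42 in KO_chow. The groups overlapped only between 6.81 and 6.95, and the difference was 1.61 (adjusted p = 0.0125). The call was lost without KO_chow replicate 2 (1.18, adjusted p = 0.0519). Cyp2b9 ran from 12.09 to 12.32 in KO_UDCA (median 12.19), above all KO_chow mice, with a difference of 0.31 (adjusted p = 0.00993). Cyp2b13 ran from 9.45 to 10.62 (median 10.08), a range that held 3 of the 5 KO_chow mice. Its difference of 0.88 had an adjusted p of 0.0932, but it was called without KO_chow replicate 3 (1.14, adjusted p = 0.0272) or without replicate 4 (1.09, adjusted p = 0.0324).

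Cyp2d22 ran from 9.57 to 9.79 in KO_UDCA (median 9.68), again above all KO_chow mice, and differed by 0.47 (adjusted p = 0.00666). Cyp2a4 ran from 10.28 to 10.94 (median 10.69), with overlap only at KO_chow replicate 4, and differed by 0.61 (adjusted p = 0.00976). Cyp2b9, Cyp2g1 and Cyp2d22 were the 3 members without overlap (7.14%, against 2.62% of all genes). Cyp2g1 ran from 4.6 to 5.35 (median 4.76) and differed by 0.41 (adjusted p = 0.0368). That call was lost without any one of KO_UDCA replicates 3, 5 and 6 and KO_chow replicates 1, 2, 3 and 5 (0.31 to 0.44, adjusted p 0.0527 to 0.11).

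Cyp3a16 ran from 5.77 to 8.13 in KO_UDCA (median 7.42), above 4 of the 5 KO_chow mice. The difference was 2.31 with an adjusted p of 0.0499, and the call was lost when any one mouse was left out except KO_chow replicate 3 or KO_UDCA replicate 6 (2.11 to 2.37, adjusted p 0.0681 to 0.122). Cyp3a44 ran from 7.06 to 8.28 (median 7.59) and differed by 0.80 (adjusted p = 0.0687). Cyp3a11 ran from 12.13 to 12.41 (median 12.31), within the range of its KO_chow values but for 2 mice, with a 95% interval of -0.34 to 0.03. Cyp1b1 ran from 4.62 to 4.99 (median 4.82), overlapped KO_chow, and had an interval of -0.43 to 0.09. Cyp1a1 was not called (0.33) but was called without KO_chow replicate 4 (0.42, adjusted p = 0.0177) or KO_UDCA replicate 5 (0.43, adjusted p = 0.00736).

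Around the members, 7 of 14 receptors and partners were higher and 1 was lower in KO_UDCA than in KO_chow. Over all genes 5.03% were called higher and 6.22% lower. Among genes at or above the median level these shares were 8.88% and 9.65%. CAR (Nr1i3) ran from 8.31 to 9.33 in KO_UDCA (median 9.15) and differed by 0.90 (adjusted p = 0.0185), a call lost without KO_chow replicate 2 or 5 (0.69 to 0.82, adjusted p 0.063 to 0.08). Sult2a1 rose by 1.56 (adjusted p = 0.00759), but it lay below the array median on all 5 KO_chow arrays and on 4 of 6 KO_UDCA arrays. That call was lost with a pseudocount of 16 and without both KO_chow replicates 2 and 5 (adjusted p 0.0832 to 0.169). In KO_UDCA Sult2a1 was still called lower than in WT_chow, by 3.16. Acute phase genes were lower for 10 of 12, with a list mean of -0.0678 to 0.115 in KO_UDCA, and all 9 cholangiocyte markers were lower.

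In the remaining comparisons no member was called. UDCA in wild-type mice gave 0 called genes with limma, in and outside the members, and 5 of 42 members (11.9%) had an unadjusted p below 0.05, where 5.57% of all genes did. Among them Cyp3a59 ran from 7.54 to 8.39 in WT_UDCA (median 7.87) and from 8.27 to 8.75 in WT_chow, with a difference of -0.54 (95% interval -0.92 to -0.16, adjusted p = 0.777). Cyp2a4 ran from 10.61 to 11.12 in WT_UDCA (median 10.76) with a difference of 0.34 (95% interval 0.03 to 0.65, adjusted p = 0.875). Cyp2b10 ran from 6.59 to 8.43 in WT_UDCA (median 7.49) and from 6.88 to 7.66 in WT_chow, and its groups overlapped. Between knockout and wild type on UDCA, limma called 4 genes (0.0167%) and 0 members, and 4 members (9.52%) had an unadjusted p below 0.05, where 5.45% of all genes did. Cyp1b1 was 0.50 higher there (95% interval 0.25 to 0.74, adjusted p = 0.406), at 4.81 ± 0.13 (SD, n = 6) against 4.32 ± 0.24 (n = 6).

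KO_UDCA against WT_chow gave 6 called genes (0.0250%) and 0 members with limma, and 5 members (11.9%) had an unadjusted p below 0.05, where 5.62% of all genes did. Cyp2a22 ran from 7.48 to 8.38 in KO_UDCA (median 7.58) with a difference of -0.56 (95% interval -0.95 to -0.18, adjusted p = 0.646). Cyp1b1 was 0.43 higher (95% interval 0.18 to 0.69, adjusted p = 0.51). Cyp2j6, with 7.36 to 7.61 in KO_UDCA and 7.62 to 7.8 in WT_chow, was the 1 member without overlap (lower, 2.38%, against 0.483% of all genes). A p that missed the threshold does not show that these groups had the same levels. The genotype by diet interaction, the diet difference in knockouts minus that in wild types, was called for 642 genes (2.67%) and 0 members with limma. An unadjusted p below 0.05 was reached by 12 members (28.6%, against 16.3% of all genes). Cyp2b9 came nearest, at 0.34 (95% interval 0.11 to 0.56, adjusted p = 0.10), and Cyp3a25 had 0.72 (95% interval 0.17 to 1.27, adjusted p = 0.158), which was called without KO_chow replicate 4 (0.90, adjusted p = 0.0296).

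Cyp3a16 varied more between mice than any other member in 3 of the groups, with an SD of 1.64 in WT_chow, 1.82 in WT_UDCA and 0.81 in KO_UDCA, where the median SD of a member was 0.15, 0.20 and 0.22. In WT_UDCA its 6 values were 6.21, 8.04, 4.41, 7.36, 9.1 and 9.09. Cyp3a44 in the same mice was 6.84, 7.93, 6.95, 7.37, 8.1 and 8.41, so the mice high for one gene were high for the other. Across these 6 mice Pearson's r was 0.906 (exact permutation p = 0.0139, adjusted 0.0278) and Spearman's rho 0.886 (exact permutation p = 0.0333, adjusted 0.0333). In KO_UDCA r was 0.784 (exact permutation p = 0.0653, adjusted 0.0653, n = 6) and rho 0.886 (exact permutation p = 0.0333, adjusted 0.0333). Without the 2 mice farthest from the Cyp3a16 median r was 0.926 and 0.742. These were the 2 relations computed, two-sided and adjusted over both, and the pair was chosen after its values were seen. The promoters of the pair are shown above at an identity of 92.9%, and cross-hybridisation between the transcripts was not tested.

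**Figure D5:**
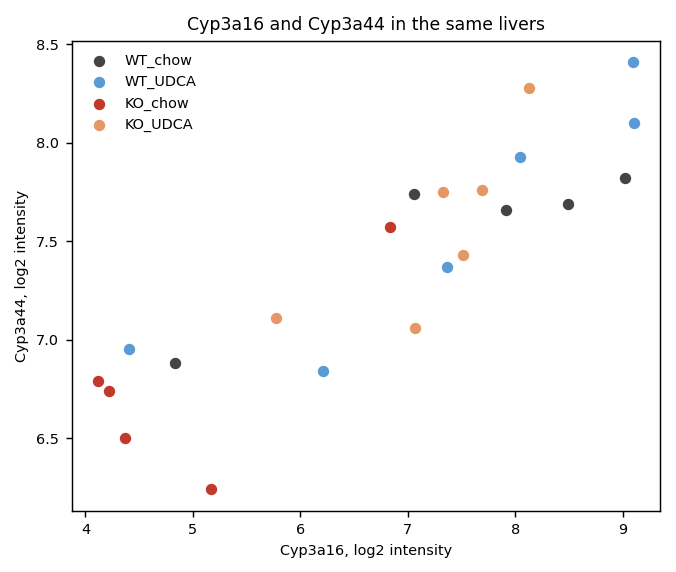
Log2 intensity of Cyp3a16 (horizontal) and Cyp3a44 (vertical) in the same 22 livers, coloured by group; neither axis starts at 0. Within WT_UDCA (n = 6, r = 0.906) and KO_UDCA (n = 6, r = 0.784) mice with more of one had more of the other, and 4 of the 5 KO_chow mice lie at the lower left.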

How the data were processed

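RNA of 22 livers was hybridised to 1 array each. The deposited values are array intensities on the unlogged scale, which per the labels the authors made with RMA and a probe-level model. RMA has no version in the submitters' processing notes, and a genome build was not given in the sources used here. Of 24973 rows, 24015 had a single symbol in the platform annotation, 958 had none and 0 had several. Where a symbol stood on more than 1 row (4 symbols), the brightest row was kept, leaving 24011 genes. All 42 members matched RefSeq (GRCm38.p6) by gene identifier. Members and gene lists were chosen with earlier results of these data known.

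Values were put on the log2 scale with no pseudocount and no filter. limma 3.58.1 (R 4.3.3, data.table version 1.17.8) fitted 4 group means to all 22 arrays, and 6 comparisons were tested with two-sided moderated tests and Benjamini-Hochberg adjustment over 24011 genes. The variance is shared by the groups, so that for genes more variable in KO_chow the SE can be too small. The rule for naming took members called with a change of at least 1.5-fold in any comparison, then Cyp1a1, Cyp1a2, Cyp1b1, Cyp2e1, Cyp2b10, Cyp3a11 and Cyp2d9, up to 3 genes of each accompanying list by adjusted p, and Nr1i2, Nr1i3, Ahr and Alas1. Of the genes so taken, Saa2, Lcn2, Tiparp and Ugt1a6b are not described above. Other genes, Cux2 among them, were named after their values were seen. The scripts were tested on simulated data. The series' design text calls the mice biological replicates; replicate numbers follow record order and pair nothing. Promoters were aligned with Biopython 1.88 (Python 3.11.15, pandas 2.3.3). The number of arrays limits the precision. Por, the P450 reductase gene, was not analysed here.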

Additional observations from a re-analysis of the deposited data

Results flagged for a closer look

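Of 64 sets of values (16 members in 4 groups), 6 held 1 mouse far from the others of its group by Dixon's test; chance alone gives about 1 in 20. Cyp2a22 was 7.52 in WT_UDCA replicate 1, where the next lowest mouse had 8 (log2 intensity). Cyp1b1 was 4.87 in WT_chow replicate 5, and the next highest had 4.31. Cyp2b10 was 7.66 in WT_chow replicate 4, and the next highest had 7.02. Cyp1a1 was 4.41 in KO_chow replicate 4, and the next highest had 4.02. Cyp2e1 was 12.91 in WT_UDCA replicate 4, and the next lowest had 13.02. Cyp2g1 was 5.35 in KO_UDCA replicate 3, and the next highest had 4.85. The cause of these values was not tested.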

How the results depend on the processing

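No paired analysis was possible because the replicate numbers follow record order and pair no mice. Of the counts of called members under alternatives, 116 stayed within 1.5 times the main count and 11 did not. The 116 include counts of 0 that stayed at 0 in comparisons without a called member, so they say little about the comparisons with calls. For KO_chow vs WT_chow (11 members), 7 were called when only the groups compared were fitted, 7 to 13 when 1 mouse was left out, and 3 without KO_chow replicates 2 and 5. For KO_UDCA vs KO_chow (6 members), these counts were 3, 3 to 8, and 0. For the interaction (0 members), 1 was called with only genes at or above the median level, with a pseudocount of 16 and with an intensity trend and robust variance, in each case Cyp2b9, and 0 to 1 when 1 mouse was left out. The other comparisons kept 0 called members under all settings run. Over all genes, fitting only the groups compared gave 2008 genes in place of 3295 and 1454 in place of 2701, and leaving out 1 mouse gave 2219 to 3849 and 1632 to 3201. For single genes named, 4451 values stayed on the same side of the threshold, whether called or not, 197 lost a call and 33 gained one. Of values called in the main fit or the alternative, 0 changed sign. Changes of sign in genes called in neither were counted as staying. Cyp3a25 in KO_UDCA vs KO_chow was such a case, at 0.33 and at -0.06 without KO_chow replicates 2 and 5. The mouse titles run from 1 to 15 and from 16 to 22 over the groups; the labels do not call this a batch, and as a block it left 11 and 5 members called. With only the groups compared, Cyp1a2, Cyp2b9, Cyp2d13 and Cyp3a25 lost their call in KO_chow vs WT_chow, and Cyp2b10, Cyp2b9 and Cyp2g1 in KO_UDCA vs KO_chow. Such fits hold fewer mice and also take the variance from the compared groups alone. The cause of these shifts was not tested. Signal limits 12 members that lay below the array median on all arrays. A further 5, Cyp1b1 among them, lay above it on some arrays only.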
